A study of Mus musculus with 6 samples.

Results

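Imprinted genes are transcribed mainly from one parental copy, and 32 of them that lie outside the Prader-Willi locus were examined in RNA-seq of the mouse suprachiasmatic nucleus (SCN), the hypothalamic seat of the central circadian clock. They were taken by symbol from a fixed list, which was chosen with earlier results of these data known. They make up 32 of the 17645 genes listed in at least 1 library. The tissue came from female C57BL/6 mice killed in the dark at zeitgeber time (ZT, hours after lights on) 12 to 14, and each library was made from pooled RNA of 2 SCN cut with a needle from frozen brain sections. Libraries titled r1r2V (replicates 1, 4 and 5) were taken, from the series title, to carry the deletion of Nr1d1 and Nr1d2 (the REV-ERBα and REV-ERBβ genes) in GABAergic neurons, and libraries titled V (replicates 2, 3 and 4) to be the controls. The labels name no age, Cre driver or allele. The SCN is largely GABAergic, but a needle punch holds other cells too, and in bulk RNA fewer cells of a type and less RNA per cell cannot be told apart. Independence of the pools is not stated in the labels, and a p-value therefore reflects only how far these libraries vary, which may be technical.

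Each table gives 1 level per gene and does not separate the parental copies, so imprinting itself was not measured. Total expected counts were 17040698 to 17566335 in the r1r2V libraries and 15729603 to 17780928 in the V libraries. Nr1d1 had 196, 157 and 147 CPM (counts scaled to the library's total) in r1r2V libraries, against 56.7, 62.5 and 57.0 CPM in V libraries, and Nr1d2 had 229, 275 and 222 CPM in r1r2V libraries, against 177, 179 and 168 CPM in V libraries. The summed reads of both deleted genes were thus higher, not lower, in r1r2V libraries, and which exons were removed is not known from the labels; every direction given rests on the titles. The pan-neuronal markers and the SCN markers Avp, Vip, Six6 and Lhx1 were present in every library. Presence does not mean equal level, and the directions of all 15 SCN neuron markers are given with Calcr below. Libraries of the same group were less alike in r1r2V than in V: the chi-square per degree of freedom was 11.7 to 13.6 between r1r2V libraries and 3.86 to 4.58 between V libraries.

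Imprinting is set by DNA methylation laid down in the germ line at control regions, each of which governs a cluster of genes, and is kept in the embryo by zinc-finger proteins and DNA methyltransferase. Many imprinted genes act on growth, placental function and behaviour, and the hypothalamus is one of the tissues in which many of them are highly expressed. By general knowledge of the mouse, 15 of the 32 are expressed from the paternal copy, 12 from the maternal copy, and 5 (Grb10, Gnas, Blcap, Inpp5f and Begain) from a copy that differs between transcripts or tissues or is less settled. Some of the maternal class, such as Igf2r, Ppp1r9a, Copg2, Commd1, Slc22a3 and Trappc9, are imprinted weakly or only in some tissues, and Igf2 escapes imprinting in the coverings of the brain.

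Some imprinted genes share a start region or a transcript with a neighbour, which bears on how their levels can be read. Peg3 and Usp29, both paternally expressed, start on opposite strands of chromosome 7. The RefSeq start sites used here were 6730419 (Peg3, minus strand) and 6730583 (Usp29, plus strand) of GRCm38.p6. They are not the outermost: the RefSeq spans reach to 6730462 for Peg3 and from 6730559 for Usp29. The 163 bases between the start sites used, chr7:6730420-6730582, hold 5 CpG dinucleotides, marked here in capitals, and are 62.0% G or C. Both ends of this stretch thus lie inside an annotated gene. The bases are shown because 1 stretch lies upstream of both of these start sites.
Peg3-Usp29, plus strand: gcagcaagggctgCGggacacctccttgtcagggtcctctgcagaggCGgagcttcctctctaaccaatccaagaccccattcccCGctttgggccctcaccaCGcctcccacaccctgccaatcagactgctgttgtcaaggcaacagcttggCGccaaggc

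Rtl1, paternally expressed on chromosome 12, is crossed on the other strand by miRNA genes that are expressed from the maternal copy and are known to direct cleavage of the Rtl1 transcript. Exons of Rtl1 in the GENCODE annotation overlap 7 miRNA genes, for which RefSeq gives 13 mature sequences with 13 different seeds. On the strand opposite to Rtl1 lie 11 of these 13, and each of the 11 is fully complementary to the 6358-base GENCODE transcript of Rtl1. One for each of the 6 opposite-strand genes is printed with its seed, bases 2 to 8, in capitals. The miRNAs themselves were not analysed here.
miR-127-3p: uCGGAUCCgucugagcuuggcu
miR-136-3p: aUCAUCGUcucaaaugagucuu
miR-431-3p: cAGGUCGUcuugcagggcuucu
miR-432: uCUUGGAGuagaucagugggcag
miR-433-3p: aUCAUGAUgggcuccucggugu
miR-434-3p: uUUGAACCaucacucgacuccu

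REV-ERB proteins repress genes through an element with the core AGGTCA, and CLOCK-BMAL1 activates genes through the E-box CACGTG. RefSeq promoter windows, 250 bases before to 50 after a start, were held for 25 of the 32 genes, as 43 windows. The core alone was not searched, only TAGGTCA, the core after a T, and TGGGTCA, which has G for the core's first A. On either strand, TAGGTCA and TGGGTCA were found in 0 of the 43 windows, against 2.61% and 3.98% of all 32851 windows. The D-box TTATGTAA and the YY1 core GCCATNTT were also found in 0 of the 43, against 0.938% and 6.05% of all windows. The palindrome CACGTG was in 6 of the 43 windows (14.0%), belonging to 5 genes, against 7.15% of all windows. The same Begain E-box is counted in more than a single window. That of Ppp1r9a lies inside the gene, whose span begins at 4902872, and before a later start site. Those E-boxes, in capitals, are printed in stretches of 60 bases, or 75 for Igf2r, which holds 2; a match describes the letters only.
Igf2r, minus strand, chr17:12769707-12769781: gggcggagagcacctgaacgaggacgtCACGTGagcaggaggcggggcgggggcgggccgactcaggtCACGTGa
Mcts2, plus strand, chr2:152687030-152687089: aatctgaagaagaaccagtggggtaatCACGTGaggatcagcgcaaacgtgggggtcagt
Plagl1, plus strand, chr10:13090623-13090682: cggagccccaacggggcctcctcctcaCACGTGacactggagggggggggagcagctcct
Ppp1r9a, plus strand, chr6:4903104-4903163: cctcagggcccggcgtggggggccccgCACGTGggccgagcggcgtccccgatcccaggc
Begain, minus strand, chr12:109068302-109068361: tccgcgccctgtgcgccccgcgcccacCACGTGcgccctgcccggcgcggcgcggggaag

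Levels of the imprinted genes spanned from among the highest in the SCN to almost none. Levels between genes are given in FPKM, the authors' fragment number scaled to transcript length and library size, which allows genes of unlike length to be compared. Gnas, which encodes the stimulatory G-protein subunit, ranked 9th of the 17645 listed genes by mean FPKM, Nap1l5, a nucleosome assembly protein-like gene, ranked 15th, and Nnat, which encodes the small membrane protein neuronatin, ranked 17th. Together the 32 genes held 1.07% to 1.19% of the summed FPKM of a r1r2V library and 1.13% to 1.17% of that of a V library. Over the tested genes of each class, the median FPKM was 29.3 for the 15 paternally expressed genes, 18.7 for 10 maternally expressed genes and 93.4 for the 5 with mixed allele use, against 9.39 for all 14438 genes tested.

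**Figure D1:**
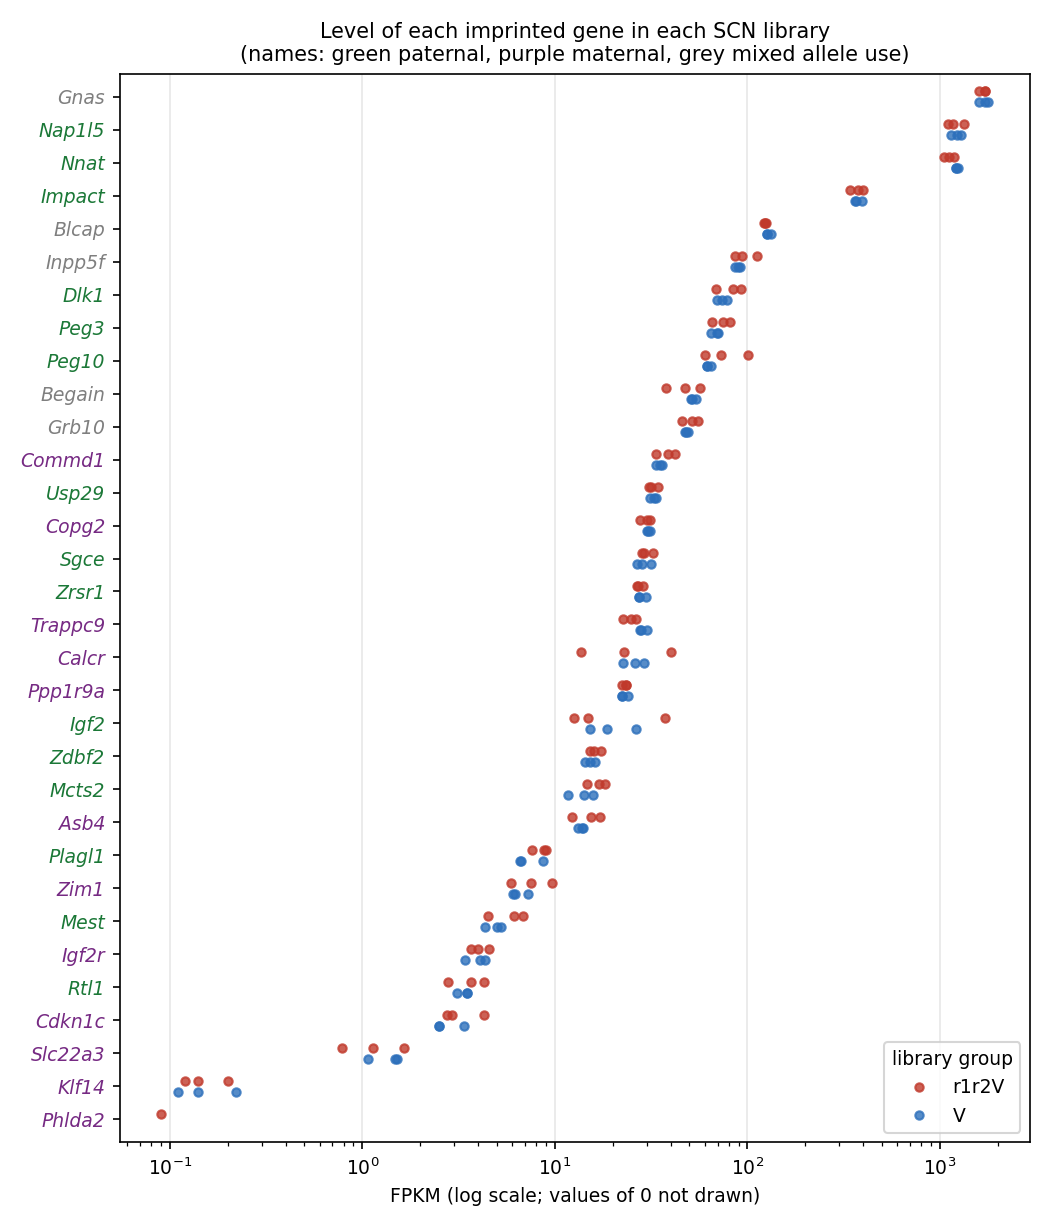
FPKM of each imprinted gene on a log axis, 1 point per library, with the 3 r1r2V libraries (red) above the 3 V libraries (blue) in each row and genes ordered by mean FPKM. Gnas, Nap1l5 and Nnat exceed 1000 FPKM in every library, whereas Klf14 is at 0.11 to 0.22 FPKM and Phlda2 is listed in 1 r1r2V library only.

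No imprinted gene of the 32 passed the test between genotypes. All 32 were listed, 31 of them in all 6 libraries, and 30 passed the filter on low counts. With edgeR's quasi-likelihood test on counts and adjustment over all genes, 0 of the 30 were higher and 0 lower in r1r2V libraries, beside 0.416% of all genes tested that passed (0.298% higher and 0.118% lower). At an unadjusted p under 0.05, 0 were higher and 1, Trappc9, was lower, beside 7.58% of all genes in either direction (3.95% higher and 3.63% lower). DESeq2 and limma-voom likewise called 0 after adjustment and 1, Trappc9, before it. The lowest adjusted p of the 30 was 0.565.

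The intervals show how large a difference these libraries leave room for. The 95% interval of the fold change lay within 1.5-fold in either direction for 23 of the 30 genes, beside 80.3% of all genes tested, and within 2-fold for 29, beside 93.7%. The exception at 2-fold was Igf2, with 0.653- to 2.13-fold. The log2 fold changes (r1r2V minus V) ran from -0.21 for Trappc9 to 0.32 for Peg10, with 19 above 0 and 11 below. The values for 3 genes did not overlap between groups, all 3 lower in r1r2V libraries (Trappc9, Nnat and Blcap), and 0 were higher without overlap, beside 7.63% and 6.87% of all genes tested.

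Paternally and maternally expressed genes were also set side by side, with no test of the difference between the classes. The median log2 fold change was 0.09 over the 15 paternally expressed genes, 0.04 over the 10 tested maternally expressed genes and -0.02 over the 5 with mixed allele use, beside 0.01 over all genes tested. Of the paternally expressed genes 11 were above 0 and 4 below, and of the maternally expressed genes 6 were above 0 and 4 below, beside 52.5% of all genes above 0. By library, the median deviation of the paternally expressed genes from their V mean, in log2 CPM, was 0.01, 0.14 and -0.05 in r1r2V replicates 1, 4 and 5, against 0.02, 0.04 and -0.08 in V replicates 2, 3 and 4. That of the maternally expressed genes was -0.03, 0.04 and -0.04 in r1r2V replicates 1, 4 and 5, against -0.03, 0.00 and 0.02 in V replicates 2, 3 and 4. In both classes the r1r2V libraries lay on both sides of 0. With the genes of weak or varying imprinting named above left out, the order of the classes turned: the maternal median was 0.20, over Cdkn1c, Zim1, Asb4 and Calcr, and the paternal median 0.09.

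**Figure D2:**
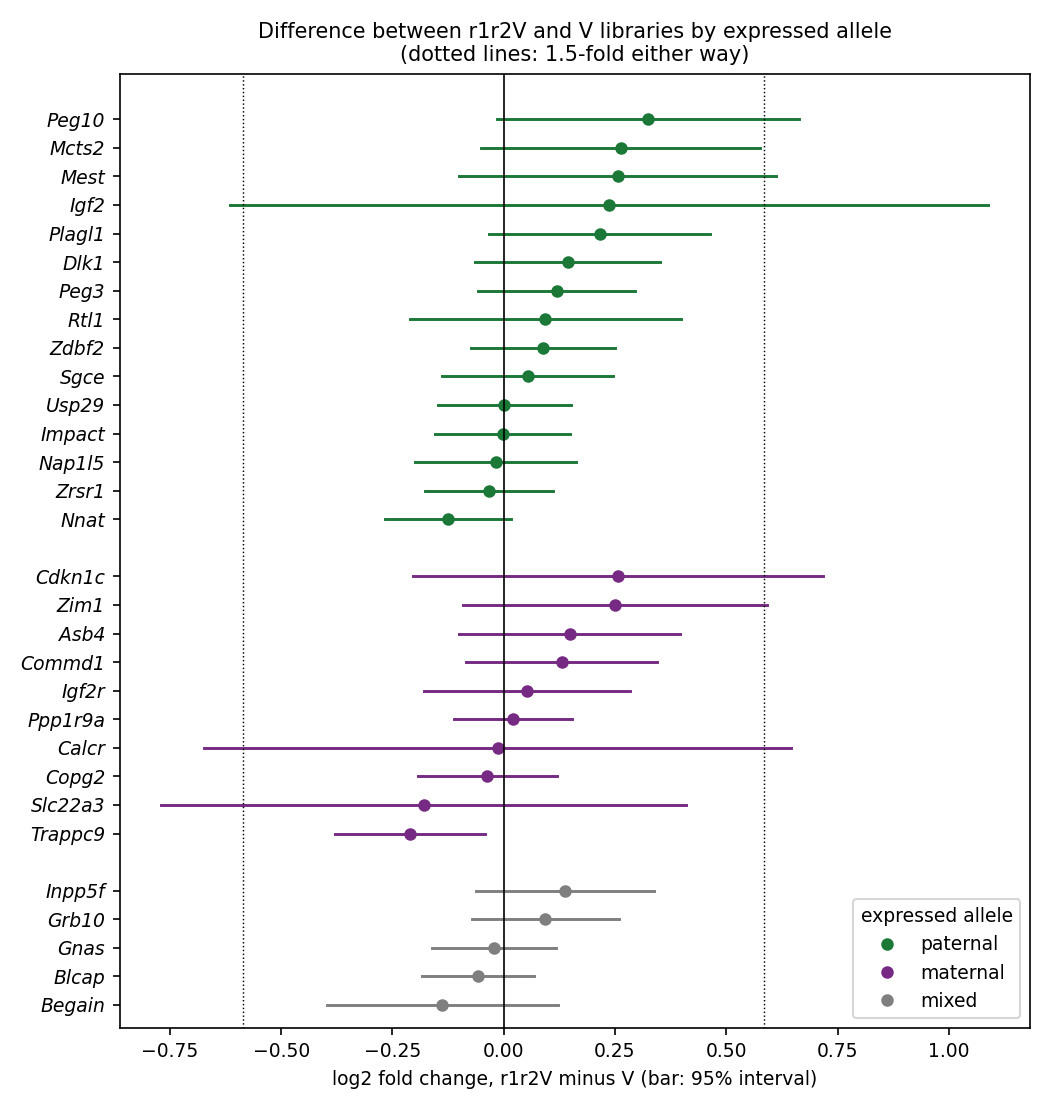
Log2 fold change (r1r2V minus V, x axis) of the 30 tested imprinted genes with 95% intervals, grouped by the expressed allele. All intervals but that of Trappc9 include 0, and that of Igf2 reaches 1.09.

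Among genes of growth control, the hormone-signalling and growth-factor genes, 0 of 9 tested passed. Igf2, a fetal growth factor that in the adult brain is made mainly by the meninges and choroid plexus, had 39.2, 39.2 and 120 CPM in r1r2V replicates 1, 4 and 5, against 52.5, 71.2 and 44.6 CPM in V replicates 2, 3 and 4. Thus r1r2V replicate 5 was the highest library and the other two r1r2V libraries the lowest, and the log2 fold change of 0.24 (SE 0.38, adjusted p = 0.888, edgeR) turned to -0.52 without that library (adjusted p = 0.32).

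Markers of meningeal fibroblasts were high in the same library as Igf2. All 10 were measured, and their summed level was 63.6, 76.6 and 139 CPM in r1r2V replicates 1, 4 and 5, against 66.6, 78.5 and 61.0 CPM in V replicates 2, 3 and 4. Of the 10, 9 were at their highest of the 6 libraries in r1r2V replicate 5. All 10 had a log2 fold change above 0, with a median of 0.43, and 0 passed the test. Of these, 2 (Slc6a13 and Aldh1a2) were higher in every r1r2V library than in any V library, beside 6.87% of all genes tested, and the others overlapped. The 9 choroid plexus markers summed to 42.2, 51.9 and 34.0 CPM in r1r2V libraries, against 42.3, 41.5 and 31.7 CPM in V libraries. In r1r2V replicate 5, 1 of these 9 (Kcnj13) was at its highest of the 6 libraries and 3 at their lowest, among them Ttr, which had 2.79, 2.53 and 0.35 CPM in r1r2V libraries, against 0.68, 0.68 and 0.44 CPM in V libraries. The part of meningeal or choroid plexus tissue in the Igf2 values was not tested. In the GENCODE annotation, 62.8% of the exon bases of Igf2 are shared with Gm49394 on the same strand.

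**Figure D3:**
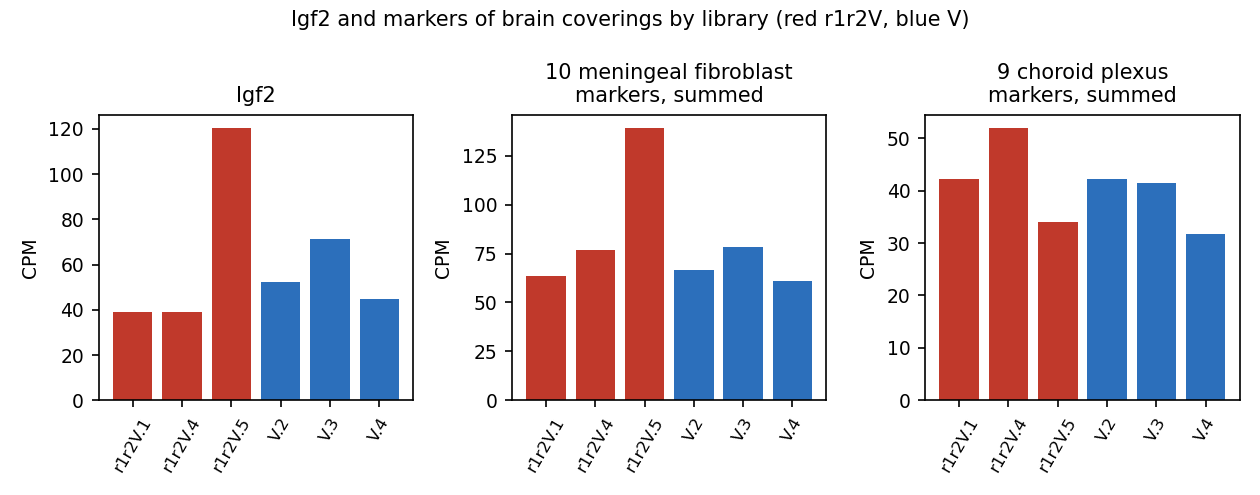
Bars give CPM in each library, r1r2V (red) left of V (blue), for Igf2, for the sum of 10 meningeal fibroblast markers and for the sum of 9 choroid plexus markers. Igf2 and the fibroblast markers are highest in r1r2V replicate 5, at 120 and 139 CPM, and the choroid plexus markers in r1r2V replicate 4, at 51.9 CPM.

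The genes of receptors and inhibitors of growth signals overlapped between groups. Igf2r, whose product takes IGF2 to the lysosome for breakdown, had 40.0, 35.4 and 33.1 CPM in r1r2V libraries, against 30.2, 38.1 and 36.4 CPM in V libraries. Grb10, which encodes an adaptor that restrains insulin and IGF receptors, had 245, 265 and 219 CPM in r1r2V libraries, against 227, 231 and 225 CPM in V libraries. Both sets overlapped, with log2 fold changes of 0.05 and 0.09. Cdkn1c, a cyclin-dependent kinase inhibitor, was low, at 5.28, 5.06 and 7.81 CPM in r1r2V libraries and 4.57, 4.56 and 6.09 CPM in V libraries, with an interval of 0.868- to 1.64-fold around a log2 fold change of 0.26, the third largest of the 30. In GENCODE, 30.7% of its exon bases lie opposite an antisense gene. Plagl1, a zinc-finger factor that acts on other imprinted genes, had 45.3, 39.8 and 47.0 CPM in r1r2V libraries, against 34.4, 44.7 and 34.5 CPM in V libraries (log2 fold change 0.22, adjusted p = 0.678), so 1 V library lay among the r1r2V libraries.

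Dlk1, which encodes a transmembrane ligand related to Notch ligands, had 379, 351 and 290 CPM in r1r2V libraries, against 309, 323 and 291 CPM in V libraries. Its r1r2V values lay both above and below the V range (log2 fold change 0.14, SE 0.09, adjusted p = 0.725). Its neighbours on chromosome 12 are Rtl1 and Begain, the second of which encodes a postsynaptic scaffold-associated protein. Rtl1 had 21.7, 19.02 and 14.5 CPM in r1r2V libraries, against 17.9, 17.80 and 15.99 CPM in V libraries, and Begain had 147, 101 and 126 CPM in r1r2V libraries, against 136, 132 and 143 CPM in V libraries. Dlk1 and Rtl1, both paternally expressed, were highest in r1r2V replicate 1 and lowest in r1r2V replicate 5, and Begain was highest in replicate 1 and lowest in replicate 4. The nearest gene that passed the test, Serpina1b, lies 5.29 Mb from Begain, which is the shortest such distance for any imprinted gene here that shares a chromosome with one.

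Gnas had 2934, 2984 and 2767 CPM in r1r2V libraries, against 2985, 2756 and 3080 CPM in V libraries, and its 95% interval ran from 0.894- to 1.08-fold. The listed length of Gnas, averaged over its transcripts, was 1818 to 1830 bases in r1r2V libraries and 1825 to 1828 bases in V libraries. GENCODE gives 1789 and 1716 bases for a pair of its shorter RefSeq transcripts, and 3719 to 3947 bases for the long ones. Calcr, the calcitonin receptor gene, whose product couples to the Gnas subunit, had 79.1, 143 and 48.8 CPM in r1r2V replicates 1, 4 and 5, against 102, 78.8 and 92.4 CPM in V replicates 2, 3 and 4. The r1r2V values enclosed all V values: the coefficient of variation was 53.2% among r1r2V libraries and 12.9% among V libraries, and the log2 fold change was -0.01 (95% interval -0.67 to 0.65). Without r1r2V replicate 4 it was -0.51 and without replicate 5 0.28, with neither passing. Among 15 SCN neuron markers, 7 shared the order of Calcr within r1r2V, highest in replicate 4 and lowest in replicate 5, and 8 did not. Vip, the peptide gene of the SCN core, was one of the 7, with 50.5, 72.0 and 11.4 CPM in r1r2V libraries, against 85.8, 53.0 and 51.8 CPM in V libraries. Avp, the peptide gene of the SCN shell, was one of the 8, with 160, 190 and 384 CPM in r1r2V libraries, against 247, 259 and 360 CPM in V libraries. Of the 15 SCN markers, 4 had a log2 fold change above 0 and 11 below, with a median of -0.19, and 0 passed the test. At an unadjusted p under 0.05 (edgeR), 1 was higher and 4 lower, beside 3.95% and 3.63% of all genes. Without overlap between groups, 1 was higher and 3 lower, Lhx1 among the 3, beside 6.87% and 7.63% of all genes tested. Markers of neighbouring hypothalamic neurons summed to 1439, 1307 and 2310 CPM in r1r2V libraries and to 1808, 2031 and 1844 CPM in V libraries. Pmch, a lateral hypothalamic peptide gene, had 581 CPM in r1r2V replicate 5 and 213 CPM in V replicate 3. Without Pmch, these sums were 1422, 1305 and 1729 CPM in r1r2V libraries and 1796, 1818 and 1821 CPM in V libraries. They still rest largely on a few peptide genes: Oxt had 641, 505 and 797 CPM in r1r2V libraries, against 947, 702 and 944 CPM in V libraries. Pomc had 303 CPM in V replicate 3, against 5.42 and 22.7 CPM in V replicates 2 and 4. Of the 16 tested markers in this list, 6 had a log2 fold change above 0 and 10 below, and 0 passed. The part of tissue composition in the Calcr values was not tested.

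The growth list also held genes of low level that are maternally expressed in placenta. Slc22a3, which encodes a transporter of organic cations, had 2.61, 3.91 and 5.65 CPM in r1r2V libraries, against 3.67, 5.13 and 5.01 CPM in V libraries. Phlda2, a restrainer of placental growth, had 1 count in r1r2V replicate 4 and 0 in the other 5 libraries, below the 3 counts that a count of 0 allows in a library, and no comparison was possible.

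Zinc-finger and other nuclear or RNA-handling genes also gave 0 of 7 tested. Peg3, a zinc-finger gene studied for maternal behaviour, had 525, 495 and 430 CPM in r1r2V libraries, against 457, 458 and 420 CPM in V libraries, so that 2 of 3 r1r2V libraries lay above the V range (log2 fold change 0.12, adjusted p = 0.729). Usp29, a deubiquitinase gene that starts from the stretch printed above in the other direction, had 231, 257 and 229 CPM in r1r2V libraries, against 243, 245 and 229 CPM in V libraries. Zim1, the maternally expressed zinc-finger gene beside them, had 33.0, 26.0 and 20.4 CPM in r1r2V libraries, against 21.3, 24.7 and 20.8 CPM in V libraries. Among r1r2V libraries, Peg3 and Zim1 were both highest in replicate 1 and lowest in replicate 5, whereas Usp29 was highest in replicate 4. In GENCODE, 14.3% of the exon bases of Usp29 lie opposite the antisense gene Zim3.

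Nap1l5 had 2082, 2435 and 2016 CPM in r1r2V libraries, against 2334, 2060 and 2223 CPM in V libraries, and Impact, whose product restrains the amino acid stress kinase, had 1256, 1354 and 1171 CPM in r1r2V libraries, against 1331, 1218 and 1238 CPM in V libraries. Both sets overlapped, with log2 fold changes of -0.02 and 0.00. Nap1l5 lies within an intron of Herc3 on the opposite strand and shares no exon base with it, and the log2 fold change of Herc3 was 0.12, with an adjusted p of 0.849. Zdbf2, a zinc-finger gene, had a log2 fold change of 0.09. Klf14, a transcription factor gene without introns, had 7, 10 and 6 counts in r1r2V libraries and 7, 11 and 5 counts in V libraries, too few to pass the filter.

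The retrocopies among these genes were read beside the genes they derive from. Mcts2, a copy of the translation factor gene Mcts1 that lies inside H13, had 10.2, 12.01 and 12.8 CPM in r1r2V libraries, against 11.0, 9.92 and 8.18 CPM in V libraries, while Mcts1 had 48.9, 68.6 and 59.7 CPM in r1r2V libraries, against 52.6, 55.3 and 48.0 CPM in V libraries. The transcripts of Mcts2 and Mcts1 align over 671 bases at 83.8% identity. Zrsr1, a splicing-factor copy of Zrsr2 that lies inside Commd1, had 125, 120 and 119 CPM in r1r2V libraries, against 121, 120 and 131 CPM in V libraries. Zrsr2 had 63.8, 73.6 and 67.9 CPM in r1r2V libraries, against 65.9, 65.2 and 63.9 CPM in V libraries. The transcripts of Zrsr1 and Zrsr2 align over 369 bases at 73.4% identity. Commd1, a gene of copper handling, had 23.8, 28.1 and 30.4 CPM in r1r2V libraries, against 25.9, 24.0 and 25.3 CPM in V libraries. Zrsr1 and Commd1 share 412 exon bases on opposite strands, and no source states whether reads were counted by strand.

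The genes derived from a retrotransposon's gag and pol, Peg10 and Rtl1, are needed in the placenta. Peg10 had 475, 673 and 398 CPM in r1r2V libraries, against 406, 405 and 425 CPM in V libraries. It had the largest log2 fold change of the 30 tested genes, 0.32 (SE 0.15, adjusted p = 0.66), with the r1r2V values on both sides of the V range and a coefficient of variation of 27.5% among r1r2V libraries, against 2.74% among V libraries. Without r1r2V replicate 4 its log2 fold change was 0.085. Sgce, the epsilon-sarcoglycan gene that starts beside Peg10 on chromosome 6, had 45.3, 47.4 and 52.8 CPM in r1r2V libraries, against 51.1, 45.5 and 43.6 CPM in V libraries, an order unlike that of Peg10. Further along, Ppp1r9a, which encodes the actin-binding synaptic protein neurabin, had 219, 213 and 225 CPM in r1r2V libraries, against 211, 225 and 212 CPM in V libraries, and Asb4, which encodes a ubiquitin ligase component found in hypothalamic neurons, had 49.6, 56.7 and 40.2 CPM in r1r2V libraries, against 44.7, 45.2 and 42.3 CPM in V libraries. Of these 5 genes of 1 cluster, Calcr included, Peg10, Calcr and Asb4 were highest in r1r2V replicate 4 and lowest in r1r2V replicate 5. That order was not particular to the cluster: Grb10 on chromosome 11, Impact on chromosome 18 and Nap1l5, elsewhere on chromosome 6, had it too.

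Of the 30 tested genes, 3 had groups that did not overlap with r1r2V lower, beside 7.63% of all genes tested. They stand among the 8 listed as membrane and synapse genes, a list drawn up with earlier results known. Nnat and Blcap lie at 1 locus, so they are not separate instances. Trappc9, which encodes a subunit of a vesicle-tethering complex, had 86.9, 74.7 and 84.5 CPM in r1r2V libraries, against 93.4, 91.8 and 99.7 CPM in V libraries. All r1r2V values were below all V values, at a fitted 0.864-fold (log2 fold change -0.21, SE 0.08, unadjusted p = 0.0192, adjusted p = 0.565). Nnat had 1164, 1273 and 1343 CPM in r1r2V libraries, against 1364, 1393 and 1364 CPM in V libraries, a log2 fold change of -0.12 (adjusted p = 0.676). Blcap, in whose intron Nnat lies on the opposite strand, had 245, 246 and 252 CPM in r1r2V libraries, against 255, 253 and 265 CPM in V libraries, a log2 fold change of -0.06 (adjusted p = 0.802). The gap between the groups was small for both: the highest r1r2V value of Blcap was 252 CPM and the lowest V value 253 CPM. Nnat and Blcap share no exon base in GENCODE.

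**Figure D4:**
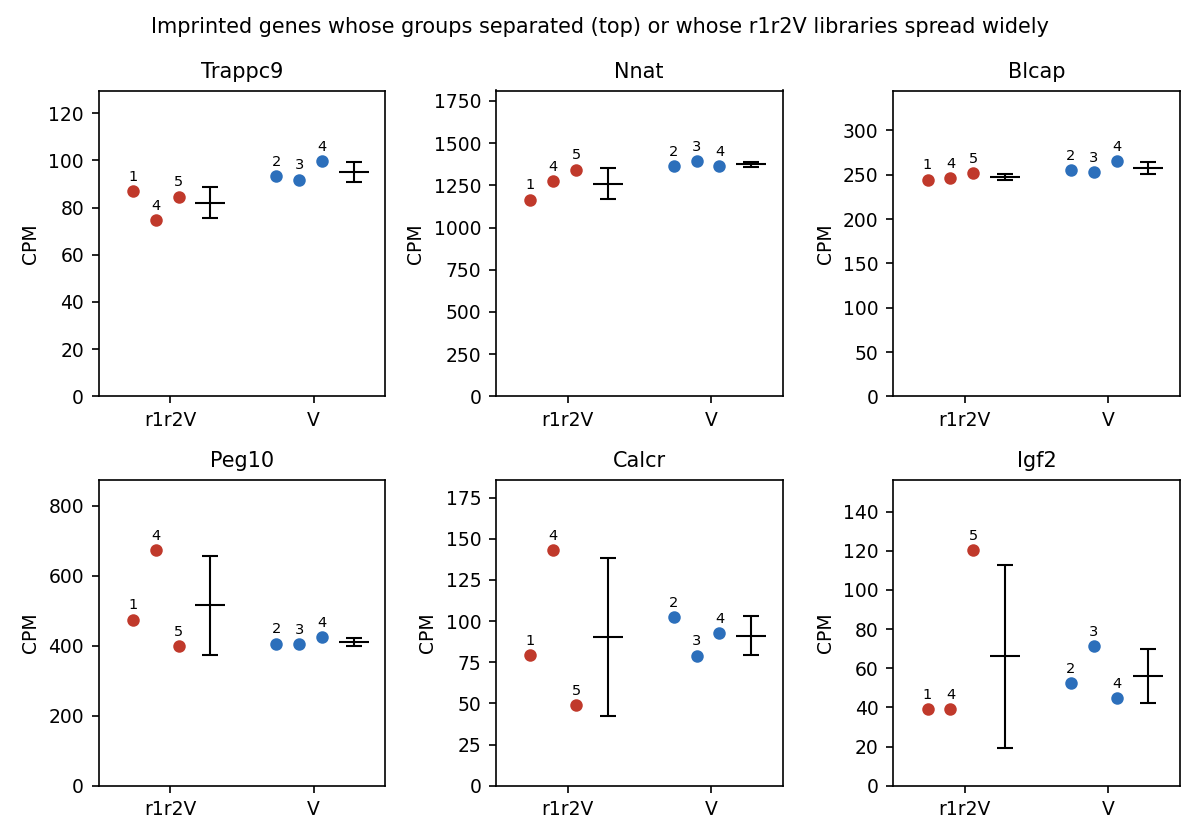
CPM of 6 imprinted genes by library, r1r2V left and V right, with replicate numbers, and the mean ± SD beside each group (n = 3). In the top row the r1r2V values all lie below the V values, while in the bottom row Peg10 and Calcr are highest in r1r2V replicate 4, at 673 and 143 CPM, and Igf2 in r1r2V replicate 5, at 120 CPM.

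Inpp5f, a phosphoinositide phosphatase gene of which only a short brain transcript is imprinted, had 283, 340 and 264 CPM in r1r2V libraries, against 278, 270 and 258 CPM in V libraries (log2 fold change 0.14, adjusted p = 0.725). Its listed length was 3106 to 3138 bases in r1r2V libraries and 3106 to 3128 bases in V libraries, against 4734 bases for the full-length transcript in GENCODE. Lengths in the deposited tables and in GENCODE also differ for genes with a single transcript, so this says only that the listed length hardly varied. Copg2, which encodes a coat protein subunit, had 108, 124 and 119 CPM in r1r2V libraries, against 123, 117 and 120 CPM in V libraries. Mest, a hydrolase-like gene beside it, had 10.8, 16.5 and 15.0 CPM in r1r2V libraries, against 12.1, 12.96 and 10.3 CPM in V libraries. The pair share 912 exon bases on opposite strands, 23.1% of those of Mest, so that reads of Copg2 and Mest cannot be told apart there unless strand was used.

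Replicate spread differed between the groups for the imprinted genes. Among the 30 tested, the median coefficient of variation was 10.2% over the r1r2V libraries and 5.15% over the V libraries, beside 9.41% and 5.74% over all genes tested. The highest were those of Igf2 (70.7%), Calcr (53.2%) and Slc22a3 (37.6%) in r1r2V libraries. Without r1r2V replicate 5, 11 of 30 genes had an unadjusted p under 0.05, beside 11.2% of all genes in that fit: Asb4, Dlk1, Grb10, Inpp5f, Peg10, Peg3, Rtl1 and Zim1 were higher, and Igf2, Nnat and Trappc9 lower, in r1r2V libraries. None of the 11 passed the adjustment, the lowest adjusted p being 0.208 for Peg10. That fit gave the most; those without r1r2V replicate 1 or 4 gave 5 and 2 of 30, and those without V replicate 2, 3 or 4 gave 2, 2 and 0.

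Genes that work with the imprinted genes were taken as lists, and their counts at an unadjusted p under 0.05 stand beside 3.95% of all genes higher and 3.63% lower. Of 23 genes that set or keep imprints, 21 were tested and 0 passed, the median log2 fold change being 0.07, with 2 higher and 1 lower at an unadjusted p under 0.05. Of 20 insulin and IGF pathway genes, 0 passed, with a median of 0.04 and 1 gene in each direction at that unadjusted level. Of 14 genes of the pathway that includes Gnas, 0 passed and 0 had an unadjusted p under 0.05, with a median of 0.02. Of 33 other imprinted genes outside the Prader-Willi locus, 23 were tested and 0 passed, with a median of -0.02 and 3 genes in each direction at an unadjusted p under 0.05. Of 8 genes of the Prader-Willi and Angelman region, 7 were tested and 1, Ndn, rose, with 1536, 1717 and 1507 CPM in r1r2V libraries, against 855, 728 and 973 CPM in V libraries (adjusted p = 0.00289).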

How the data were processed

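The deposited tables give, for each of 6 SCN libraries, an expected count (the authors' estimated count of reads, 9.65% to 10.2% of values not whole), an FPKM and a transcript length per gene, per the file headers. Tools named in the submitters' processing notes are RSEM 1.2.12, Bowtie2 2.2.5, HISAT2 2.0.4, DESeq2, GATK, Cufflinks 2.2.1 and StringTie 1.0.4, on build mm10; roles and strand setting are not given in the sources here. A gene missing from a table was set to 0. The deposited length is used only as a description.

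Expected counts were rounded, filtered with filterByExpr (minimum count 10; 14438 genes kept), scaled by TMM and compared with edgeR 4.0.16 in R 4.3.3 (quasi-likelihood, Benjamini-Hochberg over all genes, threshold 0.05). CPM use the TMM-scaled totals; intervals are 95% per gene, unadjusted. Alternatives used DESeq2 1.42.0 and limma 3.58.1 (voom), and limma on log2(FPKM + 1) of the deposited FPKM. Scripts were tested on simulated counts, with 50 genes changed at each fold. The test recovered 2% of these at 1.2-fold, 80% at 1.5-fold and 88% at 2-fold, and 8.78% of its calls were false. A difference near 1.2-fold would thus mostly not pass. All 32 members are accounted for. Values per library go to those with a low p, the highest FPKM, their clusters, Igf2, Dlk1 and Calcr; others, such as Peg10, were chosen after values were seen. The members, classes and lists were chosen with earlier results of these data known. No libraries of a group agreed within sampling noise, so none was merged; this does not show that they are independent. Coordinates are RefSeq GRCm38.p6, the assembly that mm10 names; overlaps are from GENCODE M21.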

Additional observations from a re-analysis of the deposited data

How the results depend on the processing

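No paired analysis was possible because r1r2V and V have just replicate number 4 in common. The alternatives were DESeq2, limma-voom, other scalings, other filters, FPKM with 2 pseudocounts, a threshold of 0.1, and each library left out. In all of them 0 imprinted genes passed in either direction. Over all genes, 43 were higher and 17 lower; DESeq2 gave 68 and 37, and leaving out 1 library gave 19 to 52 higher and 7 to 24 lower. The fits that left out V replicate 2, 3 or 4 gave 20, 20 and 19 higher, with 7, 8 and 7 lower; fewer libraries then entered. The paternal median ran from 0.04 to 0.13 and the maternal one from 0.03 to 0.08 without 1 library, and with weakly imprinted genes left out the maternal one was 0.20 and the paternal one 0.09, which turns their order. Signs changed for 3 genes: Usp29 was -0.000284 with limma-voom, -0.00469 with upper-quartile scaling, -0.00616 on log2(FPKM + 1), filtered or not, and -0.00636 on log2(FPKM + 0.1); Igf2, at 0.24 in the fit on counts, was -0.0251 on log2(FPKM + 1), filtered or not, and -0.0314 on log2(FPKM + 0.1); Zrsr1 was 0.00472 with the Zrsr2 counts added. Without 1 library, signs also changed for Igf2 (-0.523 to 0.505), Igf2r (-0.0428 to 0.121), Gnas (-0.067 to 0.00826), Nap1l5 (-0.106 to 0.0305), Impact (-0.0569 to 0.0443), Sgce (-0.0152 to 0.123), Calcr (-0.512 to 0.281), Ppp1r9a (-0.00268 to 0.0518), Rtl1 (-0.0414 to 0.234), Copg2 (-0.0785 to 0.0184), Zrsr1 (-0.0571 to 0.00332), Usp29 (-0.055 to 0.0271), Slc22a3 (-0.498 to 0.056). The cause was not tested. With 3 libraries a group, the intervals of 7 genes (Igf2, Calcr, Slc22a3, Cdkn1c, Peg10, Mest and Zim1) leave room for differences over 1.5-fold.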
